A study of Drosophila melanogaster with 42 samples.

Results

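The ERR mutant was compared with its control at the time point labelled P4, in 3 libraries of each genotype. The 6 libraries were chosen by their labels alone, out of 42, and all 15038 deposited genes were considered, of which 13672 passed the filter on low counts and were tested. The study followed messenger RNA of whole Drosophila melanogaster animals in both genotypes at 7 time points, which the labels call WPP, P1 to P4, A1 and A6. The source was labelled whole fly, and animals were staged at WPP for collection. Every animal, control or mutant, had been heat-treated on days 4 and 5 (AEL in the labels), and the genotypes were said to differ in whether the hsFLP transgene, a heat-inducible recombinase, was present. Differences between the groups could therefore come from the ERR mutation or from the transgene, which cannot be told apart here. The labels name the genotypes only as Control and ERR mutant and give no allele. Nothing in the labels ties the 3 libraries of a genotype to separate cultures or collections, and the p-values therefore describe only how far these libraries vary, which may be technical.

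ERR, the estrogen-related receptor of the fly, is a nuclear receptor, a protein that binds DNA and controls transcription, here of metabolic genes. In the fly it is known for switching on genes of carbohydrate metabolism, glycolysis above all, in larvae and again around the passage to adult life. Glycolysis splits glucose to pyruvate, while the neighbouring pathways store glucose as glycogen, export it as the blood sugar trehalose, or send it through the pentose phosphate shunt that yields NADPH for lipid synthesis.

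The P4 libraries held 5026919 to 6703602 counts each. On an axis running from the control P3 mean at 0 to the control A1 mean at 1, over the 2056 genes that differed at least 4-fold between those control groups, the controls lay at 0.427, 0.436 and 0.425 and the mutants at 0.380, 0.426 and 0.434. The groups overlapped, and their means of 0.429 ± 0.006 and 0.413 ± 0.029 (SD, n = 3 each) gave p = 0.5 (exact permutation, two-sided; 3 against 3 cannot go below 0.1). Mutant replicate 1 stood apart: 38 genes were more than 4-fold higher in it than in every other P4 library, against 0 to 4 such genes in each of the others. The 3 controls differed among themselves in RNAs of males, whose values are given with the seminal proteins. For a check of the whole-fly label, none of the 29 muscle, 19 nervous system and 20 eye markers was at 0. Of 40 midgut markers 7 were at 0, and of 46 accessory gland markers 2. The ejaculatory bulb and duct, ovary and yolk, and cuticle lists had 1 each at 0. The check is weak, as few counts are enough to pass it.

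At P4, 117 genes were called at an adjusted p under 0.05 (edgeR's quasi-likelihood test with Benjamini-Hochberg adjustment), which is 0.856% of those tested. Of these, 62 were higher in the mutant (0.453%) and 55 lower (0.402%), and 76 differed at least 2-fold. The median log2 difference of all genes tested was 0.004. The 3 mutant libraries lay outside the range of the 3 controls for 114 of the 117, whereas 13.9% of all tested genes had groups that did not overlap (8.37% with the mutants above and 5.57% with the mutants below). The lower genes included 10 glycolytic enzymes and 9 seminal proteins. For 37 genes, 12 higher and 25 lower, the call was made whichever P4 library was left out, and 9 of those 25 were glycolytic enzymes. The total went from 45 without control replicate 1 and 54 without mutant replicate 1 to 274 without control replicate 3, and 44 genes were called when only the 6 P4 libraries were fitted.

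**Figure D1:**
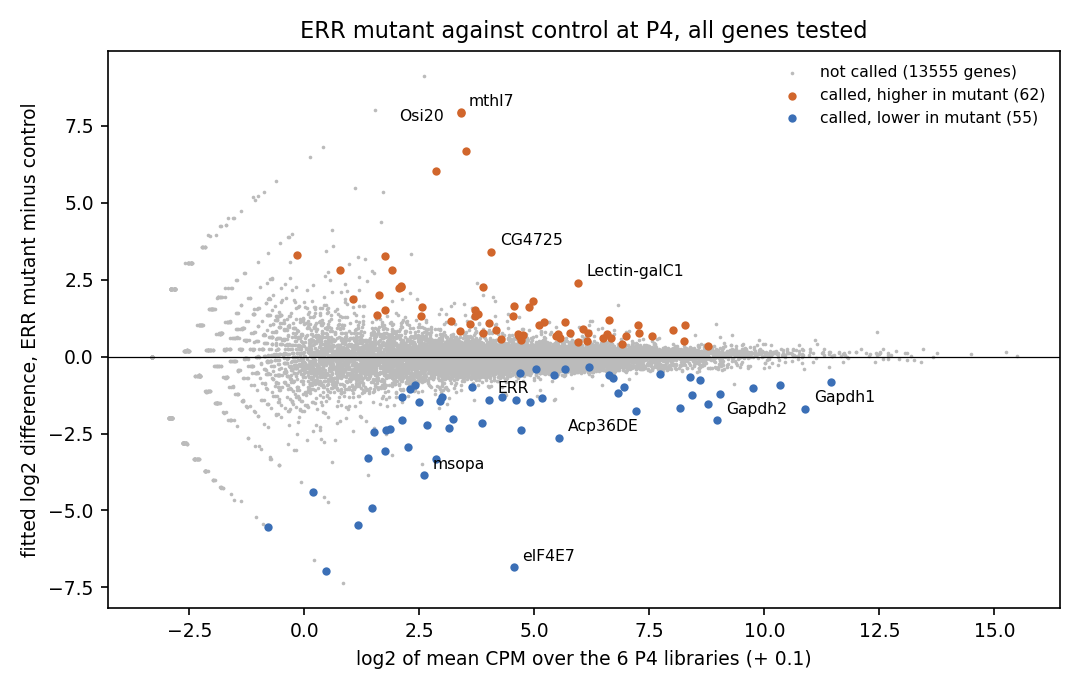
Fitted log2 difference between ERR mutant and control at P4 (y) against the log2 of the mean CPM over the 6 libraries (x), 1 point per gene tested. The 62 higher and 55 lower calls are coloured, and glycolytic genes such as Gapdh1 and Gapdh2 stand below the cloud at high levels; fitted values of genes with nearly no counts in a group, such as mthl7 and Osi20, depend on the model's prior count.

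ERR itself, FBgn0035849 on chromosome 3L from 8183361 to 8186671 on the minus strand (dm6), was at 18.5, 26.5 and 25.3 CPM (a gene's counts scaled to the library total) in the controls and 9.09, 9.72 and 7.77 CPM in the mutants. Every mutant lay below every control, and the transcript was reduced, not absent. Its log2 difference of -1.40 ± 0.189 (SE) had an adjusted p of 1.7e-05 in edgeR, and 52.2% of its exon length is overlapped by asRNA:CR45870 on the other strand. The labels name a stranded kit, but the setting used for counting is not given in the sources used here, so reads of the pair may not be told apart.

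Both neighbours on its left also differed. Uxs, which makes UDP-xylose, shares 9 bases with the end of ERR, and stood at 9.86, 10.5 and 12.9 CPM in the controls against 5.40, 5.23 and 2.79 CPM in the mutants (adjusted p = 0.0168, edgeR). The call for Uxs was lost without mutant replicate 3 (adjusted p = 0.154). mthl7, a methuselah-like receptor gene 408 bases beyond Uxs, had 1 count in the controls together and 270 in the mutants, at 18.9, 25.2 and 18.3 CPM. The ratio of these counts per library total was 313.3, with an exact 95% interval for counting error of 55.8 to 12419. eIF4E7, of the cap-binding family, on the X chromosome, went from 59.9, 47.6 and 31.7 CPM to 0.491, 0 and 0.598 CPM. mthl7 and eIF4E7 were called in the same direction at all 7 time points, as were 13 genes in all, 9 of them glycolytic; the share of tested genes called ranged from 0.446% at P3 over 0.651% at WPP, 0.797% at P1 and 2.9% at A1 to 11.4% at A6 and 11.6% at P2.

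Of the 12 glycolysis genes, 10 fell, beside 0.402% of all genes, and none rose, with a median log2 difference of -1.24 over the 12, beside 0.004 over all genes. Their summed level was 12880, 13831 and 14591 CPM in the controls and 6151, 6456 and 6569 CPM in the mutants. Every mutant sum was below every control sum. The list was drawn up with earlier results of these data known and its direction is not independent evidence. In whole flies, fewer cells of a type and less RNA per cell cannot be told apart.

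The largest differences were those of Gapdh2, Pgm, Gapdh1, Pgk and Tpi. Gapdh2, one of a pair of glyceraldehyde-3-phosphate dehydrogenases (X, 15868145 to 15869661), was at 759.4, 819.4 and 860.5 CPM in the controls and 187.7, 197.9 and 196.5 CPM in the mutants. No gene of the list differed more, at -2.07 ± 0.129 on the log2 scale (4.19-fold lower, adjusted p = 8.1e-13, edgeR). Gapdh1, which encodes the same activity, was at 2639, 2893 and 3156 CPM against 853.2, 932.6 and 913.1 CPM, a log2 difference of -1.69 ± 0.12. Pgk, phosphoglycerate kinase, which follows in the pathway, went from 381.5, 443.8 and 480.5 CPM to 139.3, 130.4 and 142.3 CPM, a log2 difference of -1.66 ± 0.103. Spread within each group was small beside these gaps, and the calls for all 3 were made in each of the 6 fits that left out a P4 library. Tpi, triose phosphate isomerase, stood at 632.0, 652.4 and 674.0 CPM against 218.9, 224.3 and 230.6 CPM. Pgm, phosphoglucomutase, which joins glycogen to glycolysis, stood at 204.1, 239.4 and 239.9 CPM against 60.9, 75.5 and 65.4 CPM. Both were near 3-fold lower, at -1.54 ± 0.203 and -1.76 ± 0.141 on the log2 scale.

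The remaining enzymes that fell did so by 1.79- to 2.40-fold. Pgi, glucose-6-phosphate isomerase, fell by 1.26 on the log2 scale, Pglym78, phosphoglycerate mutase, by 1.22, Eno, enolase, by 0.94, and Ald, aldolase, by 0.84. Pfk, phosphofructokinase, the committing step, was at 1098, 1179 and 1211 CPM in the controls and 538.0, 571.0 and 597.6 CPM in the mutants. Its groups were as far apart as those of Eno, but its adjusted p was 0.0424 and it was called in 0 of the 6 fits that left out a P4 library (largest 0.188). The entry and exit steps were the exceptions. Hex-A, the main hexokinase, was at 168.9, 181.9 and 215.9 CPM against 188.2, 209.6 and 219.2 CPM, and the groups overlapped (adjusted p = 0.742). PyK, pyruvate kinase, was at 784.1, 916.5 and 1010 CPM against 675.1, 691.6 and 729.5 CPM. The PyK groups did not overlap, and the log2 difference of -0.37 ± 0.109 had an adjusted p of 0.112, while 3 other scalings or tools called it (0.00654 to 0.0383).

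Set per transcript length, in the deposited FPKM, the control levels ran from Gapdh1 at 2627 ± 188.3 and Ald at 2114 ± 91.4 FPKM down to Pgm at 142.3 ± 9.67 and Hex-A at 65.4 ± 8.74 FPKM (SD, n = 3). Gapdh2 at 707.4 ± 31.2 and Tpi at 703.4 ± 21 FPKM did not differ beyond their spread. In the mutants Ald was the higher of the first pair, at 1163 ± 71.6 against 804.3 ± 39.7 FPKM for Gapdh1. Hex-A, at 71.2 ± 4.52 FPKM, then stood above Pgm at 41.5 ± 4.92 FPKM. The order of the steps by level thus differed between the genotypes at both ends.

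**Figure D2:**
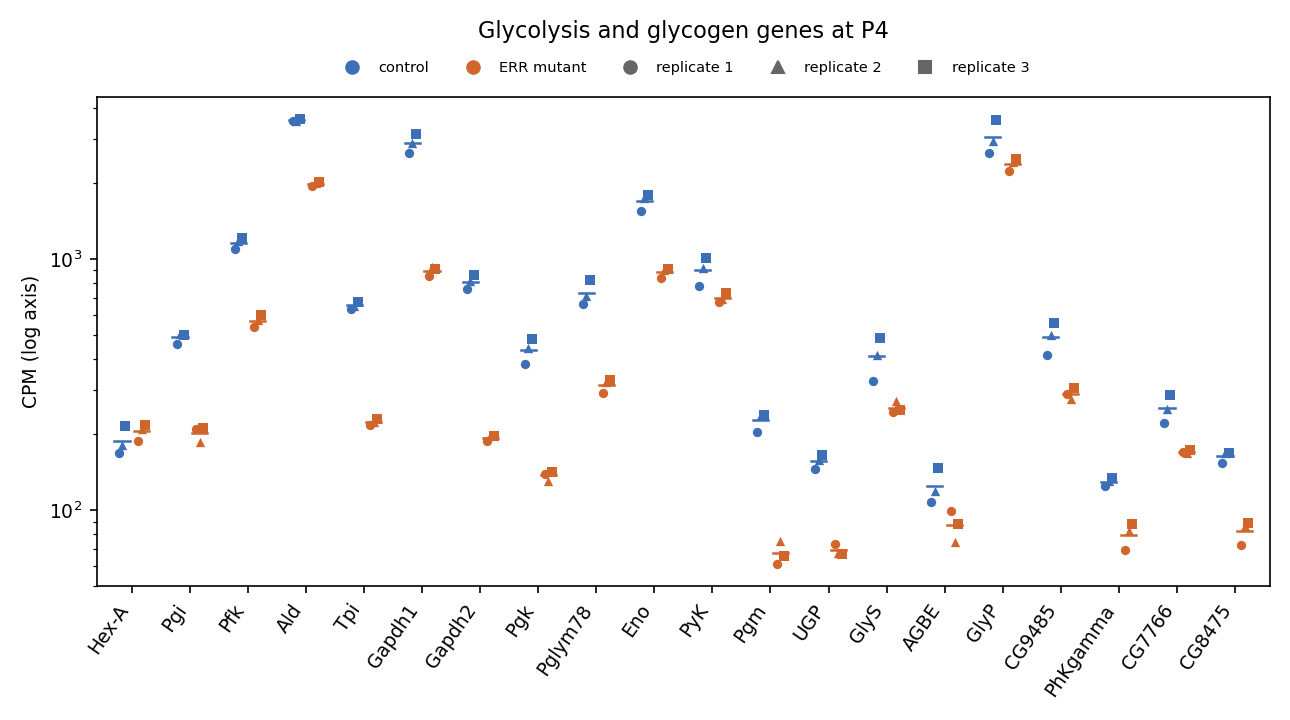
CPM (log axis) of glycolysis and glycogen genes in each of the 6 P4 libraries, with 3 controls (blue) and 3 mutants (orange) per gene, replicate by symbol and group mean as a bar. From Pgi to Eno, and for Pgm and UGP, the mutants lie well below the controls; at Hex-A they overlap, and at AGBE the gap is small.

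The 11 genes of glycogen and trehalose metabolism moved both ways, with 4 lower, 2 higher and a median log2 difference of -0.35. Of all genes, 0.402% were called lower and 0.453% higher. The 4 lower genes include Pgm, which is also counted among the glycolysis genes. UGP, which makes the UDP-glucose from which glycogen is built, was at 145.5, 157.9 and 165.8 CPM in the controls and 73.2, 67.3 and 66.8 CPM in the mutants. These groups were well separated (log2 difference -1.18 ± 0.127, adjusted p = 2.5e-07, edgeR), and 21.4% of the gene's exon length is overlapped by PGRP-LF on the other strand. GlyS, glycogen synthase, went from 327.9, 414.1 and 485.6 CPM to 245.9, 270.9 and 250.5 CPM, and CG9485, the glycogen debranching enzyme, from 415.2, 499.2 and 555.7 CPM to 288.7, 276.4 and 306.9 CPM. Both were called with smaller margins (adjusted p = 0.00922 and 0.0162), and the calls were lost without 1 and 3 of the 6 libraries in turn. An overlapping gene on the other strand, CG33655, covers 30.2% of the exons of CG9485. GlyP, glycogen phosphorylase, was at 2653, 2958 and 3564 CPM against 2235, 2443 and 2511 CPM and was not called (adjusted p = 0.514).

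The trehalose genes went the other way or did not pass. CG5171, a trehalose-6-phosphate phosphatase family gene, was at 34.8, 32.5 and 35.3 CPM in the controls and 57.5, 52.1 and 53.8 CPM in the mutants, a tight 1.59-fold rise (adjusted p = 0.00113, edgeR). Tps1, trehalose-6-phosphate synthase, was at 109.0, 184.0 and 258.1 CPM against 376.9, 323.0 and 309.1 CPM. Every mutant was higher, but the controls varied widely and only the fit without control replicate 3 still called it (0.429 without control replicate 1). Treh, trehalase, at 355.7 ± 23.7 and 348.9 ± 28.1 CPM (SD, n = 3 each), was not called.

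AGBE, the glycogen branching enzyme, had an unlike course. At P4 it stood at 107.8, 119.5 and 147.6 CPM in the controls and 99.0, 74.3 and 87.7 CPM in the mutants. The groups were next to each other without overlap, and the log2 difference of -0.52 ± 0.161 was not called (adjusted p = 0.148, edgeR; 0.039 with DESeq2). At P3 the same gene was at 53.6 ± 4.24 against 8.89 ± 0.802 CPM, and at A1 at 515.9 ± 74.9 against 92.8 ± 20 CPM (SD, n = 3). Many genes differed between adjacent time points (37.5% of those tested from P3 to P4 in controls and 37.9% in mutants, 38.9% and 47% from P4 to A1). From P3 to P4 AGBE rose by 3.28 ± 0.192 on the log2 scale in the mutant and by 1.22 ± 0.164 in the control. From P4 to A1 it rose by 2.05 ± 0.164 in the control, while the mutant moved by 0.09 ± 0.161 (adjusted p = 0.644). The genotype effect, mutant minus control with its sign, was less far below 0 at P4 than at P3, by 2.06 ± 0.249 (adjusted p = 3.0e-05). This difference was called in all 6 fits that left out a P4 library. Effects keep their sign below, so a higher effect can be a smaller fall in the mutant, and a lower effect a larger fall. AGBE was 1 of 3 genes, 0.0219% of those tested, whose effect at P4 differed from that at P3, 2 of them with a higher effect (0.0146%) and 1 with a lower one (0.00731%).

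Seminal protein genes were the other large group of lower genes. Of 46 genes of the male accessory gland, which makes the proteins transferred to females with sperm, 9 fell, none rose (0.402% and 0.453% of all genes did), and the median log2 difference was -1.19. All 46 passed the filter over the 42 libraries, and 2, Acp54A1 and Sfp24Ba, were at 0 in the P4 libraries. Acp36DE, needed for sperm storage in females (2L, 18356047 to 18359028), was at 119.3, 76.1 and 43.7 CPM in the controls and 12.5, 12.2 and 14 CPM in the mutants. The controls spread nearly 3-fold among themselves, and the lowest still stood above every mutant (log2 difference -2.63 ± 0.312, adjusted p = 2.3e-06, edgeR). Spn38F, a serpin of the same gland, was at 15.1, 9.52 and 6.13 CPM against 1.23, 2.99 and 2.39 CPM. Acp26Aa, ovulin, which stimulates egg laying, was at 10.2, 5.52 and 1.69 CPM against 0.491, 0.997 and 0.598 CPM. In each, control replicate 1 was highest and control replicate 3 nearest the mutants. Acp53C14b, Acp62F, Acp76A, Acp26Ab, aqrs and Acp95EF were the other members called, between 2.67- and 7.66-fold lower, and Acp95EF lies wholly within exons of another gene on the opposite strand. Outside the list, msopa went from 15.6, 12.2 and 5.7 CPM to 0.491, 1.5 and 0.399 CPM and CG43147 from 21.2, 12 and 5.91 CPM to 1.23, 1.25 and 1.4 CPM, with the same order of controls. The rest of the 12 lower genes of largest fold were lectin-29Ca, lncRNA:CR43239, the lipase-like CG18641, CG33665 and eIF4E7, and the first 3 of these lost their call without control replicate 1 (adjusted p = 0.162 to 0.192). lncRNA:CR43239 had 83 counts in the controls and 2 in the mutants, a ratio per library total of 35.8 with an exact 95% counting interval of 9.59 to 300.2.

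The list was near 0 at P3 and high at A1 in both genotypes, with P4 between. The summed level of the list was 9.93 ± 0.791 CPM in controls at P3, 449.9 ± 205.9 CPM at P4 and 6105 ± 1538 CPM at A1, and in mutants 11.2 ± 1.31, 183.8 ± 42.5 and 5800 ± 1173 CPM (SD, n = 3). No member was called at P3 or at A1, where 0.446% and 2.9% of all genes were. The genotype effect of Acp36DE at A1 was higher than at P4 by 2.56 ± 0.408 (adjusted p = 7.1e-04), and that of Spn38F by 2.21 ± 0.380 (adjusted p = 0.00175). Both calls were lost when only the P4 and A1 libraries were fitted (adjusted p = 0.0723 and 0.0836).

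Some other male RNAs moved with them in the controls, but the sum of the 7 ejaculatory bulb and duct genes ran in the opposite order. That sum was 1273, 1429 and 1644 CPM in the controls and 1480, 1736 and 1637 CPM in the mutants, without a call. roX1, a noncoding RNA of the male X chromosome, was at 455.5, 365.0 and 207.0 CPM in the controls and 257.7, 239.8 and 244.4 CPM in the mutants. Mst87F, a gene of late sperm development, was at 319.8, 282.8 and 163.5 CPM against 195.1, 202.9 and 199.7 CPM. For both, control replicates 1 and 2 lay above every mutant and control replicate 3 below, and neither gene was called. Over the 32 testis genes the summed level ran from 5044 to 9446 CPM in controls and from 5473 to 6028 CPM in mutants. Of these genes 1 fell, beside 0.402% of all genes: Mst57Db, whose product is known from the accessory gland. Divided by Mst87F of the same library, a measure chosen after the values were seen, Acp36DE was 0.373, 0.269 and 0.267 in the controls and 0.0642, 0.0602 and 0.0699 in the mutants. The groups did not overlap on this ratio, but 3 against 3 cannot pass a threshold of 0.05 (p = 0.1, two-sided exact permutation test, the smallest it can give). Acp36DE before division already separated the groups, so the ratio is not a separate test and does not measure the part of male share. The summed list divided the same way was 2.04, 1.61 and 1.47 against 0.704, 0.953 and 1.1, also without overlap (p = 0.1, exact). The undivided sums did not overlap either. Without control replicate 1, 2 members of the list were called and without mutant replicate 1, 3, against 15 without control replicate 3, and with only the 6 P4 libraries fitted 1 was. The ovary and yolk list, with 11 of 16 genes tested, ran in the opposite order in the controls. It summed to 206.1, 245.5 and 322.1 CPM in the controls and 300.5, 297.8 and 303.2 CPM in the mutants. Of the 11, 1 rose, the yolk protein gene Yp3, beside 0.453% of all genes. This call was lost without control replicate 1, mutant replicate 2 or mutant replicate 3, and with only the 6 P4 libraries. The part of differing shares of males in the levels of these and other genes was not tested.

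**Figure D3:**
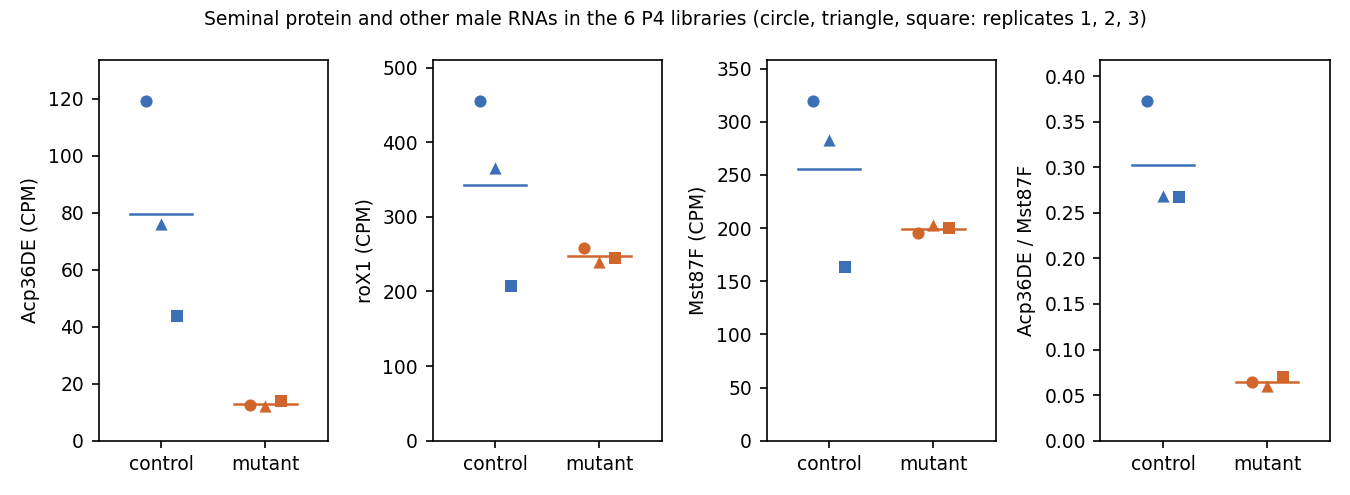
Acp36DE, roX1 and Mst87F in CPM and the ratio of Acp36DE to Mst87F (y, from 0) in the 3 control (blue) and 3 mutant (orange) libraries at P4, with group means as bars. roX1 and Mst87F overlap between genotypes, with control replicate 3 lowest, while the ratio lies between 0.267 and 0.373 in controls and between 0.0602 and 0.0699 in mutants. Acp36DE itself does not overlap either, so the ratio is not a separate test.

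Among the genes higher in the mutant, Lectin-galC1, a galactose-binding C-type lectin (2L, 19417447 to 19418274), had the smallest p after mthl7. It was at 19.2, 21.9 and 18.2 CPM in the controls and 82.5, 112.2 and 118.6 CPM in the mutants. The groups were far apart, 5.28-fold (log2 difference 2.40 ± 0.226, adjusted p = 1.3e-08, edgeR), and the call was made in all 6 fits that left out a library. The control stayed near this level at P3 and A1 (20.8 ± 3.90 and 24.6 ± 4.43 CPM), whereas the mutant was at 52.2 ± 4.19 at P3 and 63.5 ± 19.8 CPM at A1. Its effect at P4 exceeded the mean of the other 6 stages by 1.68 ± 0.239 (adjusted p = 4.5e-04).

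CG4725, a neprilysin-like gene now named Nepl13, rose from 1.43, 4.00 and 3.17 CPM to 48.9, 12.7 and 29.7 CPM. The mutants varied by nearly 4-fold and all lay above the controls (log2 difference 3.41 ± 0.415, adjusted p = 2.7e-06). Its P3 levels were 3.65 ± 1.28 CPM for the control and 3.71 ± 0.747 CPM for the mutant (SD, n = 3), and the effect at P4 differed from that at P3 by 3.39 ± 0.630 (adjusted p = 0.0393), a call lost without control replicate 1 or mutant replicate 1 (largest adjusted p = 0.227) and with only the P3 and P4 libraries (0.601). CG1143 rose from 13.3, 10.5 and 18.2 CPM to 63.4, 37.1 and 45.4 CPM, and CG14949 from 9.15, 12.6 and 12.9 CPM to 43.2, 29.4 and 34.1 CPM. These were 3.49- and 3.09-fold higher and were called in every fit that left out a library. The rest of the 12 largest rises had few counts or wider spread. CG6910, now Miox, which breaks down myo-inositol, was at 4.66, 4.19 and 6.34 CPM against 39.3, 13.7 and 19.1 CPM. FucTC, a fucosyltransferase, CG17560, CG9518 and CG12374 were all under 10 CPM in every library and 4.66- to 6.98-fold higher. CG18302 was at 3.05, 18.1 and 22.6 CPM against 61.7, 35.9 and 34.9 CPM (adjusted p = 0.0312), and control replicate 1 alone was far below the others.

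Of 20 genes of fatty acid and triglyceride synthesis, 1 rose, beside 0.453% of all genes. FASN1, fatty acid synthase, was at 87.0, 102.0 and 105.6 CPM in the controls and 154.3, 162.0 and 150.7 CPM in the mutants. The groups were separate, and the 1.59-fold rise (adjusted p = 6.2e-04, edgeR) was called in all 6 fits that left out a library. In 9 of the 20, FASN1 included, every mutant lay above every control, beside 8.37% of all genes. The fat body list holds 13 genes of the tissue that stores fat and glycogen. It had 2 calls, both higher (beside 0.453% of all genes), FASN1 and Lectin-galC1. Its summed level ranged from 2596 to 3637 CPM in controls and from 2721 to 5730 CPM in mutants, so the groups overlapped. The median log2 difference of the 13 was 0.53, beside 0.004 over all genes, with 1 member below 0. In 3 of the 13 every mutant lay above every control, beside 8.37% of all genes.

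**Figure D4:**
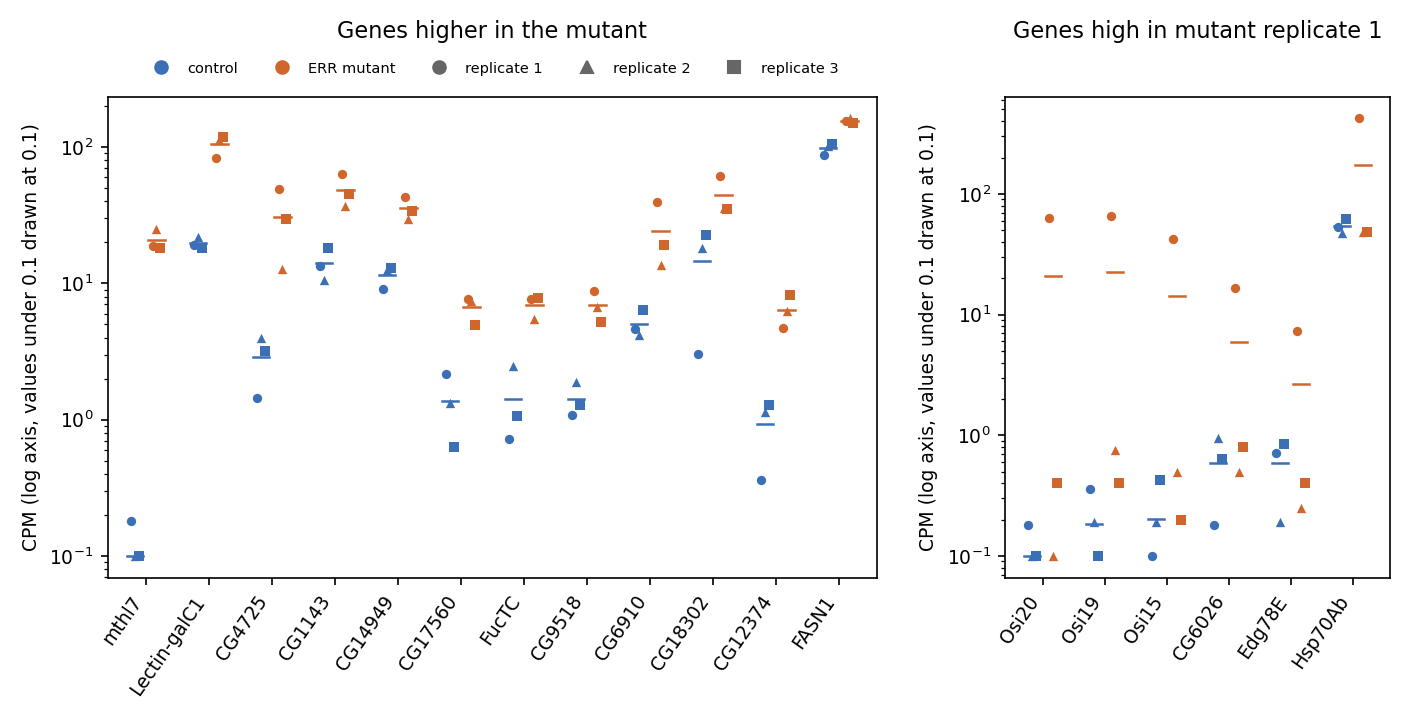
CPM (log axis, values under 0.1 drawn at 0.1) in each P4 library, for genes higher in the mutant (left) and genes high in mutant replicate 1 (right); blue is control, orange is ERR mutant, symbols mark replicates and bars group means. On the left all 3 mutants lie above all 3 controls for each gene, and on the right replicate 1 alone is high.

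Calls that rest on mutant replicate 1 form a set of their own. Osi20, of the Osiris family of cuticle-forming membrane proteins, was at 0.179, 0 and 0 CPM in the controls and 62.6, 0 and 0.399 CPM in the mutants. Osi19 was at 65.8 CPM in that library and at most 0.748 CPM in the others, and Osi15 at 42 CPM against at most 0.498 CPM. Over the groups, the ratios of counts per library total were 298.2 for Osi20 (exact 95% counting interval 53 to 11823), 105.6 for Osi19 (35.7 to 515.2) and 67.3 for Osi15 (22.6 to 329.5), and nearly all mutant counts came from replicate 1. The other mutants were within 1 CPM of the controls, and without replicate 1 the adjusted p was between 0.893 and 0.967 for these 3 genes and CG6026. Of the 38 genes high in this library alone, 4 were called, beside 0.453% of all genes called higher. The 38 were picked for high values in a mutant library, which favours such a call. Of the 38, 19 were over 4-fold higher still in the mutant P3 libraries, a count whose share over all genes was not taken. Between P3 and P4, 37.9% of all tested genes differed in mutants, in either direction and at any fold. Osi20 was at 1548 CPM in P3 mutants and 1265 CPM in P3 controls. Among the 38 were the cuticle genes Edg78E, TwdlE and Cpr49Ah. Hsp70Ab, a heat shock gene, was at 421.3 CPM against at most 61.7 CPM elsewhere at P4.

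The 117 calls overlapped those of the adjacent time points in part. Of the P4 calls, 27.4% were also called at P3 in the same direction, which is 52.5% of the P3 calls. At A1 the shared genes were 37.6% of the P4 calls and 11.1% of the A1 calls. For 48 of the P4 calls, 36 higher and 12 lower, no other time point gave a call in the same direction, and 16 of these 48 also differed in effect from the mean of the other 6 stages. That difference was called for 50 genes in all (0.366%), 42 with a higher effect at P4 (0.307%) and 8 with a lower one (0.0585%).

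Between P4 and A1 the effect differed for 99 genes (0.724%), 80 with a lower effect at A1 (0.585%) and 19 with a higher one (0.139%). Of the 7 pentose phosphate genes, 1 fell at P4, beside 0.402% of all genes, and for 5 the effect at A1 was lower than at P4. Taldo, transaldolase, was at 99.9, 123.7 and 135.6 CPM in the P4 controls and 74.2, 81.3 and 80.1 CPM in the P4 mutants, a log2 difference of -0.61 ± 0.151 (adjusted p = 0.0443, edgeR). Its groups were separate at P4, though only the fit without control replicate 1 called it again (largest adjusted p = 0.203). At A1 it was at 261.9 ± 23.6 against 51.8 ± 2.55 CPM (SD, n = 3), and the effect was lower than at P4 by 1.73 on the log2 scale (-1.73 ± 0.214, adjusted p = 1.6e-05). CG8036, a transketolase, was at 515.9 ± 52.7 and 452.5 ± 14.6 CPM at P4 and 678.2 ± 104.8 and 236.4 ± 6.29 CPM at A1, a difference of -1.33 ± 0.167 in effect. Zw and Pgd, the enzymes that make NADPH, had log2 differences of 0.14 and 0.03 at P4 and -0.97 and -1.03 at A1. CG9914 followed the same course, at 130.4 ± 18.1 against 99.9 ± 9.01 CPM at P4 and 329.6 ± 30.1 against 61.5 ± 11.1 CPM at A1.

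**Figure D5:**
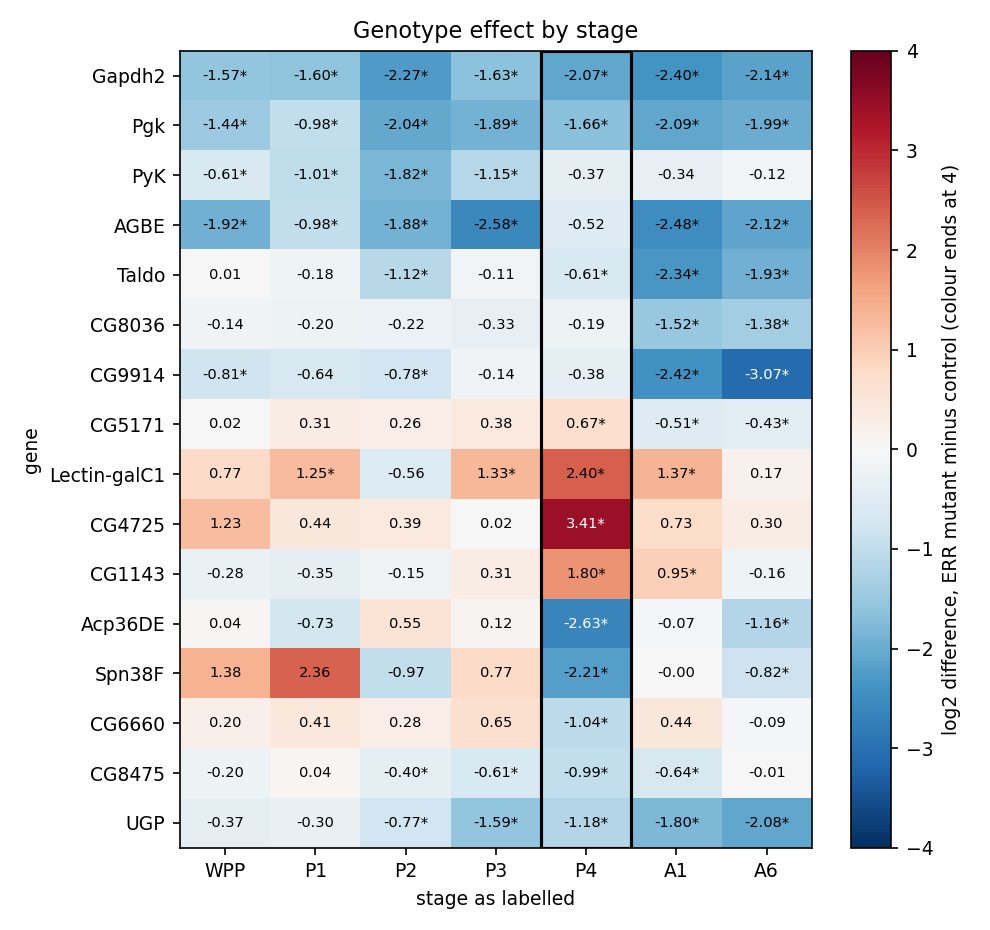
Log2 difference of ERR mutant minus control (colour and number, asterisk where the adjusted p is under 0.05) for 16 genes (rows) at each labelled time point (columns), with P4 framed. Gapdh2 and Pgk are lower throughout, AGBE is lower at every time point but only by 0.52 and uncalled at P4, Taldo and CG8036 have larger negative values at A1 than at P4, and CG4725 has its largest value at P4.

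In 27 of the 39 lists no member was called. As 0.856% of all genes tested were called, a list of this size can easily hold none. Among them were 77 nuclear genes of the respiratory chain, with a median log2 difference of 0.14 and summed levels of 43072 to 52266 CPM in controls and 48622 to 55257 CPM in mutants. The 25 genes of the TCA cycle and pyruvate dehydrogenase had a median of 0.13, the 19 of fatty acid oxidation 0.09 and the 29 muscle markers 0.11. Ldh, lactate dehydrogenase, was at 15.1, 15.4 and 17.3 CPM in the controls and 22.6, 10.5 and 6.98 CPM in the mutants, which lay on both sides of the controls (adjusted p = 0.835, edgeR). Of the 73 mitochondrial ribosome genes 1 rose, mRpL33, a call lost with DESeq2's size factors or the deposited ones (adjusted p = 0.0579 and 0.0632, edgeR). Of 35 glutathione transferases 1 rose, GstT3. Beside 0.453% of all genes called higher, single calls in lists of this size are near that share. In 25 of the 73 mitochondrial ribosome genes every mutant lay above every control, beside 8.37% of all genes. Their median log2 difference was 0.24. Their summed levels were 2269 to 2474 CPM in controls and 2507 to 2928 CPM in mutants. The 63 cuticle genes tested, the 29 antimicrobial and stress genes and the 18 heat shock genes had no call.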

How the data were processed

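Raw counts per gene were deposited by the authors for 42 libraries. The submitters' processing notes name cutadapt 1.16, STAR 2.7.0f, RSEM 1.3.1, DESeq2 1.22.2 and the build dm6, without their order or settings. Variance-stabilised log values were not used. The authors also deposited a normalized signal (counts divided by size factors), used here only for its factors in an alternative, and FPKM values, used only to compare levels between genes. The test was edgeR 4.0.16 under R 4.3.3 (TMM, filterByExpr, robust quasi-likelihood fit of 14 groups of 3 libraries, 28 residual degrees of freedom), with Benjamini-Hochberg adjustment over all 13672 genes. CPM are counts scaled to the TMM-adjusted library total. Differences between stages were contrasts of genotype effects in the same fit; those involving P4 share its libraries. Positions on the P3 to A1 axis used log2 CPM with a prior count of 2. Libraries of a group differed by more than counting noise (chi-square per gene 2.95 to 25.0). Coordinates come from the Ensembl annotation, which held 99.4% of the gene IDs. The script was tested on simulated data. The members and the 39 gene lists were chosen with earlier results of these data known. Genes named are ERR, the 12 higher and 12 lower calls of largest fold whose groups do not overlap and whose higher mean reaches 5 CPM, up to 4 members of each list with the smallest p (called or not), all glycolysis genes and the 5 genes of smallest p per direction of each difference between stages, with 5 CPM in a P4 group; others were chosen after their values were seen. For called genes with levels printed and 1 to 3 counts in a group, the ratio of counts is given with its interval. Alternatives were other size factors, DESeq2 1.42.0, no filter, fewer libraries and each P4 library left out. No genome sequence was used, so no sequences are shown.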

Additional observations from a re-analysis of the deposited data

Results flagged for a closer look

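The genotype effect of the following genes differed between P4 and other time points in a contrast of the effects themselves (edgeR, adjusted p under 0.05), given as a difference on the log2 scale. An effect is mutant minus control with its sign. A higher effect can thus be a smaller fall in the mutant, and a lower effect a larger fall. Contrasts that involve P4 share the P4 libraries and are not independent.

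Against P3, the effect at P4 was higher by 2.06 for AGBE and 3.39 for CG4725, and lower for CG6660 (-1.68). CG6660 was at 7.71, 6.09 and 5.49 CPM in P4 controls and 2.46, 4.24 and 2.79 CPM in P4 mutants. That call was lost without 4 of the 6 P4 libraries in turn (largest adjusted p = 0.227). With only the P3 and P4 libraries fitted, the calls for CG4725 and CG6660 were lost (0.601 and 0.548).

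Between P4 and A1, seminal protein and male-biased genes that were lower in the mutant at P4 had a higher effect at A1. No member of the accessory gland list was called at A1. The differences were 2.56 for Acp36DE, 3.98 for msopa, 2.21 for Spn38F, 3.36 for CG43147 and 3.24 for Acp26Aa. The last was lost without any 1 of control replicate 1 and mutant replicates 1 and 3 (largest adjusted p = 0.092). With only the P4 and A1 libraries fitted, the calls for Acp36DE (0.0723), Spn38F (0.0836) and Acp26Aa (0.154) were lost. Other genes had a lower effect at A1, with differences of -2.04 for CG9914, -1.95 for AGBE, -1.73 for Taldo, -1.33 for CG8036 and -1.18 for CG5171. For all but CG5171, which was higher in the mutant at P4, this was a larger fall in the mutant at A1. Each of those 5 was called in all 6 fits that left out a P4 library.

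Against the mean of the other 6 stages, the effect at P4 was higher by 1.47 for AGBE, 1.68 for Lectin-galC1, 1.75 for CG1143, 0.82 for Ubi-p5E and 2.89 for CG4725. Ubi-p5E, a polyubiquitin gene, was at 984.1 ± 129.8 CPM in P4 controls and 1283 ± 59.2 CPM in P4 mutants (SD, n = 3), and not called at P4 itself (adjusted p = 0.153). The effect was lower for Acp36DE (-2.42), Spn38F (-2.67), CG8475 (-0.68), CG6660 (-1.35) and Xport-B (-1.18). Xport-B was at 19.4 ± 1.6 and 17.2 ± 1.06 CPM at P4, where it was not called (adjusted p = 0.779). Without control replicate 2 or mutant replicate 1 the call for CG8475 was lost (largest adjusted p = 0.0786), and without 3 of the P4 libraries in turn those for CG6660 (0.147) and Xport-B (0.0776).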

How the results depend on the processing

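The count of 117 calls was 213 with DESeq2 (118 higher and 95 lower) and 44 with only the 6 P4 libraries, and ran from 45 to 274 when a P4 library was left out. It was 147 without mutant P1 library 1, which is part of the shared fit. That library had 11641 genes with counts, against 13699 and 13733 in the other mutant P1 libraries. The 3 genes whose effect differed from P3 became 15 with DESeq2, 5 without mutant P1 library 1 and 1 with only the P3 and P4 libraries, and 1 to 7 with a P4 library left out. The 99 that differed between P4 and A1 became 172 with DESeq2 and 42 to 216. The 50 that differed from the other 6 stages became 144 with DESeq2 and 9 to 149. The low ends came without control replicate 1, shared for the second count with mutant replicate 1, and the high ends without control replicate 3. Glycolysis members called lower numbered 9 to 11 under every alternative. Accessory gland members called lower numbered 1 with only the 6 P4 libraries and 2 to 15 with a library left out. The genotype difference in position on the P3 to A1 axis of -0.016 moved by less than the spread between mutants under the alternatives run. Of 48 named calls followed through 12 alternatives, 22 were called in every one, and no direction reversed among 50 genes followed. No paired analysis was possible because the labels give no replicate numbers that could pair libraries of different groups. Genes under a few CPM rest on few counts, and 3 libraries a group limit small differences.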

Other observations

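The 3 genes annotated to phosphorylase kinase, the enzyme that activates glycogen phosphorylase, fell at P4, beside 0.402% of all genes. They were looked up after their values were seen, so this count is not a test. The catalytic subunit gene PhKgamma was at 125.0, 130.5 and 134.1 CPM in the controls and 69.5, 82.2 and 87.9 CPM in the mutants (log2 difference -0.70 ± 0.102, adjusted p = 6.3e-05, edgeR). CG7766, of the regulatory alpha type, was at 221.9, 253.7 and 286.0 CPM against 169.8, 169.5 and 172.8 CPM (-0.57 ± 0.103, adjusted p = 0.00183). CG8475, also a regulatory subunit, was at 154.1, 169.2 and 168.8 CPM against 72.7, 86.2 and 88.7 CPM (-0.99 ± 0.122, adjusted p = 3.1e-06), and 37% of its exon length is overlapped by an antisense gene. No control overlapped a mutant for any of the 3, and each call was made in all 6 fits that left out a P4 library. With only the 6 P4 libraries fitted, CG7766 was not called (adjusted p = 0.0515, edgeR). The fall was not particular to P4: with P4 counted, PhKgamma and CG8475 were called lower at 4 time points and CG7766 at 5. At P3 the log2 differences of PhKgamma, CG8475 and CG7766 were -0.71, -0.61 and -0.66, and at A1 -0.78, -0.64 and -0.92.

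Control replicate 3 was the control nearest the mutants for many calls. It was the highest control for 66.1% of the 62 higher genes, against 42% of all tested genes, and the lowest control for 52.7% of the 55 lower genes, against 35.2%. For the glycolysis genes it was on the far side, with the highest summed level of the 6 libraries. The share of counts from the mitochondrial genome was 7.70%, 6.25% and 4.12% in control replicates 1, 2 and 3 and 7.17%, 5.45% and 4.55% in the mutants, and the genotypes overlapped.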
